A study of Homo sapiens with 9 samples.

Results

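Thyroid and lung genes that NKX2-1 is known to control in epithelium were located in the chromatin of T-cell leukaemia cells. The 9 genes TG, TSHR, SLC5A5, PAX8, SFTPA1, SFTPB, SFTPC, SCGB1A1 and SCGB3A2 were taken by name from the 20037 protein-coding genes that RefSeq places on chromosomes 1 to 22, X and Y of GRCh38.p14. Each was examined over a window made of the gene body and 50 kb to each side, and a peak counted when it shared at least 1 bp with that window. The question was whether peaks of an NKX2-1 antibody, or of a mark of active chromatin, lie at these genes in this cell type.

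All 9 libraries were made from RPMI-8402, an established line of human T-cell leukaemia (T-ALL, the acute lymphoblastic form), by ChIP-seq, in which an antibody recovers the DNA bound by its target. Antibody ab76013 against NKX2-1 (TTF1) was used on 4 knockout (KO) clones, C12, C15, S04 and S36, and on 4 wild-type (WT) clones, WT10, WT13, WT28 and WT30, with 1 library per clone. The genotype field of the first 4 reads NKX2-1, and the series design calls them knockout clones. A single library used an antibody against histone H3 acetylated at lysine 27 (H3K27ac), which marks promoters and enhancers in use. It was not replicated, and its labels give the same genotype entry, NKX2-1, without naming a clone. The submitters also gave a combined NKX2-1 peak list and a list of WT-only regions. No treatment was recorded for any library, and each clone carries whatever is particular to its own derivation besides the targeted gene.

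NKX2-1 is a homeodomain transcription factor that specifies the lung, the thyroid and parts of the ventral forebrain. In thyroid follicular cells it acts with PAX8 on the genes for hormone synthesis, and in alveolar and airway epithelium on surfactant and secretoglobin genes. It is not normally active in T cells and is switched on abnormally in a subset of T-ALL. Its DNA contacts centre on the letters CAAG.

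Promoter letters were examined first, because direct control of these genes has been described at their promoters. RefSeq promoters of GRCh38.p14, each 300 bases long with 250 before and 50 after the gene start, matched 6 of the 9 genes with 7 promoters, SFTPB having 2. TG, SFTPC and SCGB1A1 were not analysed here. The motifs CTCAAG and CAAGTG were searched on both strands; they can overlap by their shared letters CAAG. One or the other occurred in 2 of the 7 promoters, those of SCGB3A2 and SFTPA1, and in 21.7% of all 35116 promoters of the same length. The SCGB3A2 promoter held 3 matches, a number that 0.436% of all promoters reached or passed, counting overlapping matches separately. These began 187 bases before the start (CTCAAG, minus strand), 68 bases before it (CAAGTG, plus strand) and at base 14 after it (CAAGTG, plus strand). In SFTPA1 the match was CTCAAG on the plus strand, 170 bases before the start. The bare letters CAAG occurred on some strand in 7 of the 7 promoters and in 86% of all promoters. The 250 bases upstream of the 2 starts are shown 5′ to 3′ on the gene's strand, with the matches in capitals, at chr5:147878461-147878710 (plus strand) for SCGB3A2 and chr10:79610689-79610938 (plus strand) for SFTPA1.
SCGB3A2: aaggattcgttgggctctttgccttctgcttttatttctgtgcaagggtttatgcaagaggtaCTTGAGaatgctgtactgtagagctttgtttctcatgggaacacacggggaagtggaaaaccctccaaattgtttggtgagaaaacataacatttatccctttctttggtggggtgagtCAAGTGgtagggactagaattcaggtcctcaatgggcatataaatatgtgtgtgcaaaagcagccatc
SFTPA1: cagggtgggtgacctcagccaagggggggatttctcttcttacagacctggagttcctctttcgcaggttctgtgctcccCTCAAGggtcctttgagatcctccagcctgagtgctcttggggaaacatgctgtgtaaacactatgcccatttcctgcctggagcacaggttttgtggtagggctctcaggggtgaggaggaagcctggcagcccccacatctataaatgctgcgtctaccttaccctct
None of the 7 promoters overlapped an H3K27ac peak. The share of all promoters that overlap one is not given here, so this count cannot be set against a background. The nearest H3K27ac peak to the SCGB3A2 promoter lay 1362 kb away and the nearest one to the SFTPA1 promoter 263 kb away. A match is a run of letters and not a bound site, and the absence of a match refers to these 2 motifs in this window.

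The 8 NKX2-1 antibody libraries held 810 to 934 peaks on these chromosomes in KO clones and 742 to 1144 in WT clones, and the H3K27ac library held 9857. Sequencing depth is unknown, so a window without a peak may hold binding that the library was too shallow to call. S36 and WT10 stood apart, with a peak in the windows of 3.19% and 2.98% of all protein-coding genes; the other 6 libraries reached between 0.599% and 1.44%. In the H3K27ac library the label of a T-cell line was checked on marker genes. A peak lay in the gene body of 15 of 26 T-cell and T-ALL markers, among them CD3D, CD3E, CD3G, LCK, ZAP70, TCF7, BCL11B and RUNX1. The bodies of CD2, CD7, CD1A, CD4, CD8A, PTCRA, RAG1, RAG2, LMO2, IL7R and CD28 held none. None of 14 epithelial markers, which include EPCAM, CDH1, KRT8 and KRT18, and none of 10 B-cell and myeloid markers had a peak in the gene body. The background was 21.2% of all protein-coding genes. Windows with 50 kb to each side did not separate the lineages in this way, holding a peak at 18 of the 26 T-cell and T-ALL markers (69.2%), 5 of the 14 epithelial markers (35.7%) and 7 of the 10 B-cell and myeloid markers (70%), against 44.8% of all genes.

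Among the 9 genes, the NKX2-1 antibody gave 1 peak, in the thyroglobulin gene TG in WT clone WT10. TG had 0 peaks in each of C12, C15, S04 and S36, against 1 in WT10 and 0 in each of WT13, WT28 and WT30. Only WT10 was high, and the genotypes overlapped at 0. At the other 8 genes every library of both genotypes had 0 peaks. A peak of at least 1 KO library lay in 0 of the 9 windows and in 3.39% of all gene windows. A peak of at least 1 WT library lay in 1 of the 9 and in 3.38% of all, and one of exactly 1 WT library and no KO library, as at TG, in 1.46% of all. Windows without a peak of any of the 8 libraries numbered 8 of the 9 and 94.4% of all. With 9 windows, shares of this size amount to fewer than 1 window, so the members' counts cannot be set apart from the background in either direction. By library, the number of the 9 windows with a peak averaged 0 in KO clones and 0.25 ± 0.5 in WT clones (SD, n = 4 each), and without WT10 it was 0 in WT clones as well.

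**Figure D1:**
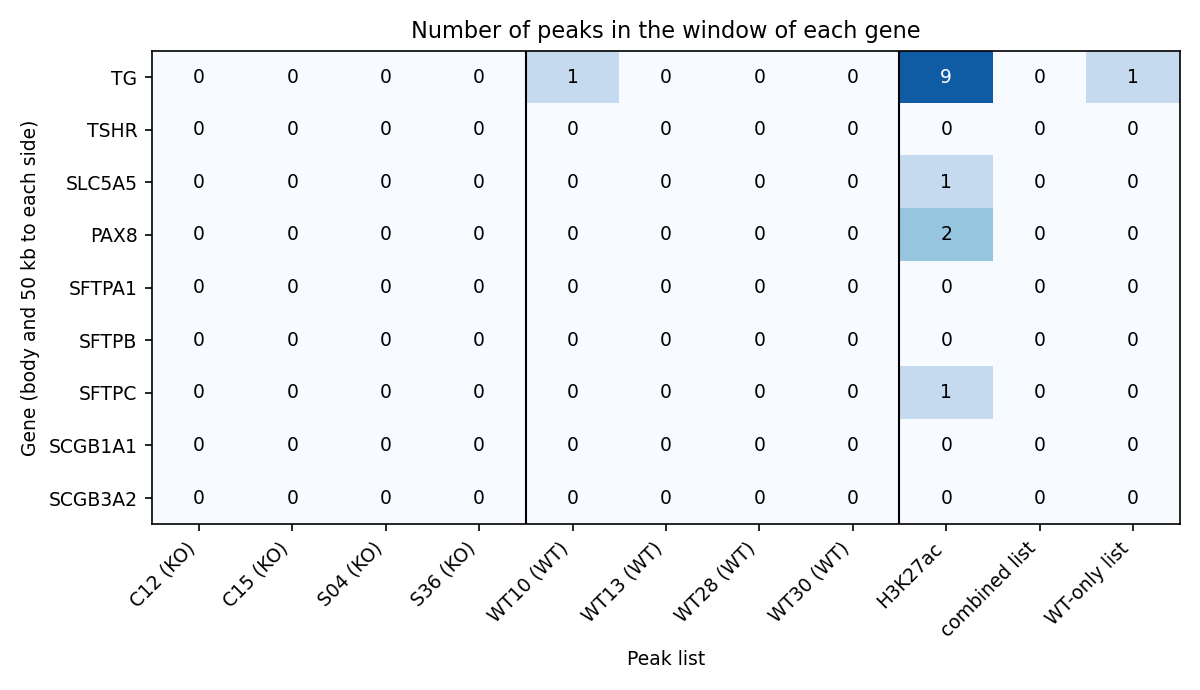
Number of peaks (figures in the cells, darker for more) in the window of each of the 9 genes (rows, gene body and 50 kb to each side) in 4 KO libraries, 4 WT libraries, the H3K27ac library and the 2 lists of the whole series (columns). TG is the only row with an NKX2-1 antibody peak, in WT10, and 4 rows hold the 13 H3K27ac peaks.

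The difference between genotypes was tested for each of the 1124 protein-coding genes with a peak of any NKX2-1 library in the window. For TG the mean number of peaks differed by -0.25 (KO minus WT), with an exact permutation p of 1 and an adjusted p of 1 (two-sided, Benjamini-Hochberg over the 1124 windows). With a single call in the 8 libraries, each of the 70 assignments gives a difference of this size. That p was therefore fixed in advance and says nothing on genotype. The other 8 members could not be tested, having no peak in any library. No window passed an adjusted p of 0.05 (0 of 1124, or 0%), and 24 had an unadjusted p under 0.05 in the permutation test. A two-sided Fisher's exact test on called against uncalled windows gave the same 2 counts, 0 and 24. The smallest p that 4 against 4 libraries allow is 0.0286, so 57.1% of the windows would have had to reach it before any could pass.

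Thyroglobulin, the large protein on which thyroid hormone is made, is encoded by TG over 268 kb of chromosome 8 (132866958 to 133134899, hg38). The WT10 peak spanned 132985664 to 132985874, 118.7 kb above the lower-coordinate end of TG and within the gene; the gene table gives no exons, so its place relative to them was not determined. It was 211 bp wide with a deposited fold enrichment (column 7, summit over the background of the peak caller) of 4.63 and a −log10 q of 5.22. Within WT10, 70.1% of 1144 peaks had a fold as high or higher and 90.4% had a −log10 q as high or higher, which places it among the weaker peaks of its library. No H3K27ac peak lay nearer than 70.5 kb. The nearest peak of a KO library was 8888 kb away, and the nearest of another WT library 8016 kb away. WT10 had 215 peaks that no other library overlapped, with a median fold of 5.42, and the TG peak was one of them. Of those 215, 57 overlapped a combined-list peak and 37 an H3K27ac peak; the TG peak overlapped neither.

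The combined list placed 0 peaks in the 9 windows, against 1.68% of all gene windows with one. Its nearest peak to any of the 9 lay 129 kb from SLC5A5, followed by 364 kb for TG and 418 kb for SCGB1A1. The median distance was 878 kb for the 9 genes and 3515 kb for the 19366 genes on chromosomes that hold such a peak. To the nearest peak of the other NKX2-1 sources the order was the opposite. The medians were 4847 kb for the 9 genes and 2070 kb for all genes with KO peaks, 2156 and 1882 kb with WT peaks, and 3074 and 2621 kb with WT-only regions. The WT-only list placed 1 region in the 9 windows, against 2.4% of all gene windows. That region had the same start and end as the WT10 peak in TG, so it adds no further library to that call. Of the 496 WT-only regions on these chromosomes, 262 were identical in position to a WT10 peak. The next nearest WT-only region lay 287 kb from SFTPA1 (79323210 to 79323536 on chromosome 10), where both WT10 (6.04-fold) and WT28 (5.85-fold) had a peak.

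Acetylated chromatin was found at some of the windows and in the body of 1 gene. H3K27ac peaks lay in 4 of the 9 windows (TG, SLC5A5, PAX8 and SFTPC), 44.4% of them, and in 44.8% of all protein-coding gene windows. In gene bodies the numbers were 1 of 9, TG, and 21.2% of all genes. The 4 windows held 13 peaks, of which 9 were in TG, 2 at PAX8, 1 at SLC5A5 and 1 at SFTPC. The median was 0 peaks per window for the 9 genes and for all genes, and the means were 1.44 and 1.21. Without TG, 4 peaks in the other 8 windows gave 0.361 peaks per 100 kb, against 0.881 with it. The same density over all gene windows is not given here, so neither value can be set against a background. TSHR, SFTPA1, SFTPB, SCGB1A1 and SCGB3A2 had none.

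With 9 H3K27ac peaks in its body, TG was among the 0.424% of protein-coding genes that held as many or more; over the window the share was 1.94%, and 4.61% of genes are longer than TG. Each of the 13 H3K27ac peaks overlapped a protein-coding gene other than the 9. The share of the whole H3K27ac list that overlaps a protein-coding gene is not given here. In TG the 9 peaks all fell within SLA, a gene of 65.9 kb that lies wholly inside TG (133036728 to 133102602). SLA encodes the Src-like adaptor, a lymphocyte protein that dampens antigen receptor signalling. The peaks spanned 37.5 kb (133056371 to 133093879). Their folds ran from 4.97 to 8.87, and the highest belonged to a peak of 1482 bp, the widest of the 13, at 133091495 to 133092976. Another of the 9 (133056371 to 133056690, 5.70-fold) also overlapped the lncRNA gene PTCSC1. Over the 202 kb of TG outside SLA no H3K27ac peak was called. An H3K27ac peak that overlaps no other protein-coding gene lay in the body of 0 of the 9 genes and of 18.5% of all. Of all 4238 genes with an H3K27ac peak in the body, 12.4% resembled TG in sharing every such peak with another protein-coding gene. Whether the marked chromatin serves SLA, TG or neither cannot be told from peak positions.

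**Figure D2:**
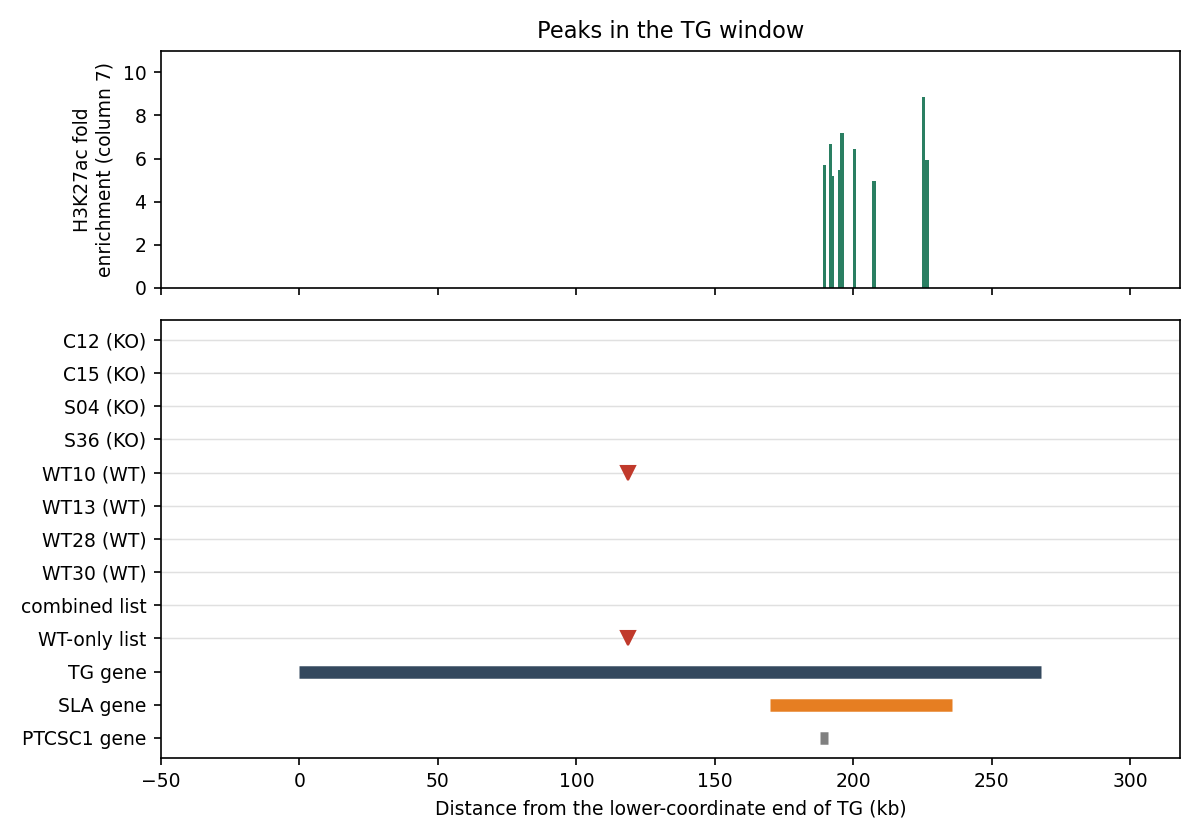
Peaks in the TG window by distance from the lower-coordinate end of TG (kb). The upper panel gives the fold enrichment of each H3K27ac peak (bars, drawn wider than the peaks), and the lower panel marks peaks of the 8 NKX2-1 antibody libraries and the 2 lists (triangles) above the spans of TG, SLA and PTCSC1. The 9 H3K27ac peaks lie within SLA, and the WT10 peak lies 118.7 kb from the end of TG, outside SLA.

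SLC5A5 encodes the sodium iodide symporter, through which thyroid cells take up iodide (chromosome 19, 17871945 to 17895174). The 1 peak of its window, 910 bp wide and 11.2 kb from the gene, had the highest fold of the 13, 9.73. JAK3, which transmits cytokine signals in lymphocytes, also lies wholly in this window and held 0 peaks. PAX8, the paired-box partner of NKX2-1 in the thyroid (chromosome 2, 113215997 to 113278921), had 2 peaks at 34.1 and 41.0 kb, both within PSD4, which encodes an exchange factor for the small GTPase ARF6. The outer one (113174175 to 113175002, 5.70-fold) began 204 bp inside the start of PSD4, which RefSeq places on the plus strand, and the inner one (113181547 to 113181884) had the lowest fold of the 13, 4.48. SFTPC, the gene of surfactant protein C (chromosome 8, 22157383 to 22164479), had 1 peak 15.7 kb away (22140990 to 22141667, 5.94-fold), inside REEP4, which encodes a protein that shapes the endoplasmic reticulum. LGI3 and BMP1, the coding genes on either side of SFTPC, held none.

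At the remaining genes no H3K27ac peak was called in the window. TSHR, the receptor for thyroid-stimulating hormone (chromosome 14, 80955621 to 81146306), lay 7168 kb from the nearest H3K27ac peak, and 99.7% of protein-coding genes lay as near or nearer. SCGB3A2, an airway secretoglobin gene (chromosome 5, 147878711 to 147882191), lay 1359 kb away, with 95.9% of genes as near or nearer. For SFTPA1, the gene of surfactant protein A1 (chromosome 10, 79610939 to 79615455), the distance was 263 kb, and for SCGB1A1, the club cell secretory protein gene (chromosome 11, 62419033 to 62423195), it was 168 kb. SFTPB, the gene of surfactant protein B (chromosome 2, 85657307 to 85668741), lay 68.0 kb from a peak of 5.09-fold, the nearest one beyond the 50 kb limit; the farthest one inside it was the PSD4 peak at 41.0 kb. The parts of AHNAK and ASRGL1 in the SCGB1A1 window, and GNLY, a cytotoxic lymphocyte gene in the SFTPB window, held none. In all, 21 other protein-coding genes lay wholly or partly in the 9 windows. Of them 4, SLA, PSD4 and REEP4 included, had an H3K27ac peak in the gene body, against 21.2% of all protein-coding genes. The median distance from gene body to nearest H3K27ac peak was 68.0 kb for the 9 genes and 68.6 kb for all genes.

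**Figure D3:**
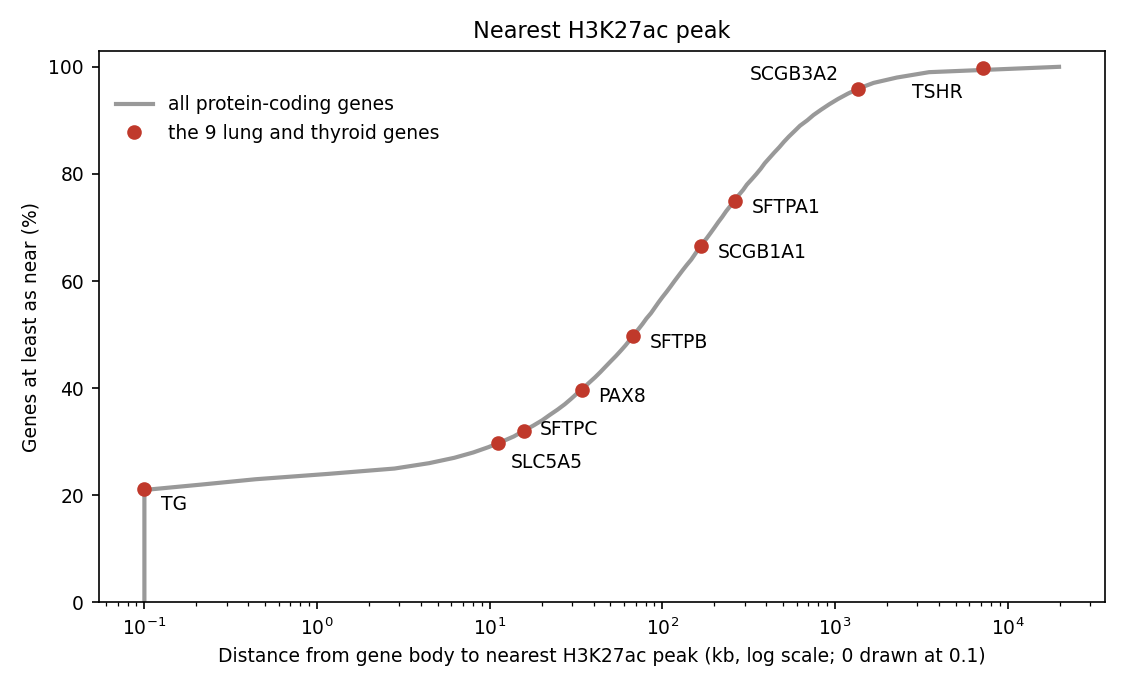
Distance from each gene body to the nearest H3K27ac peak (horizontal, kb, log scale, with 0 drawn at 0.1) against the share of protein-coding genes at least as near (vertical, %). The line gives all genes and the points the 9 lung and thyroid genes, which run from TG at 0 kb to TSHR at 7168 kb with SFTPB near the middle at 68.0 kb.

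The 13 peaks were ordinary members of the H3K27ac list. Their folds had a median of 5.94 and a range of 4.48 to 9.73, and the whole list a median of 6.19 and a range of 3.74 to 27.7. Of the 13, 5 lay above the list's median. Widths ran from 233 to 1482 bp with a median of 411 bp, against 391 bp in the whole list. At a −log10 q of 5 or more, 4 of the 13 remained, 3 in TG and 1 at SLC5A5, so that 2 of the 9 windows and 29.1% of all gene windows held a peak. At 10 or more, the SLC5A5 peak was the 1 that remained, in 1 of the 9 windows and 11.1% of all.

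Other genes of the same epithelial programmes were examined as a wider list, 12 thyroid and 14 lung genes, of which SFTA3 is a lncRNA gene in RefSeq and was not counted. An H3K27ac peak lay in the body of 2 of the remaining 25, HHEX and NKX2-1 itself, and in the window of 7, against 21.2% of all genes by body and 44.8% by window. The 7 are not all separate loci. They include DUOX1, DUOXA1 and DUOXA2, close neighbours on chromosome 15 with overlapping windows and 1 window peak each. NKX2-1 antibody peaks lay in 0 of the 25 windows in KO libraries, in 1 in WT libraries and in 1 of the combined list, at HHEX in both cases; the shares of all gene windows were 3.39%, 3.38% and 1.68%. A WT-only region lay in 1 of the 25 windows, that of HHEX, against 2.4% of all gene windows. This region had the same start and end as the WT10 peak at HHEX. No counted lung gene other than NKX2-1 had an H3K27ac peak in its body. NKX2-1 had 2, of 5.21- and 6.92-fold, and both also overlapped the uncounted SFTA3. At HHEX the 4 KO libraries each had 0 peaks, against 1 in WT10 and 0 in each of the other 3 WT libraries. The exact permutation p was 1 and the adjusted p was 1 (KO minus WT -0.25 peaks). As at TG, a single call fixed this p in advance.

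**Figure D4:**
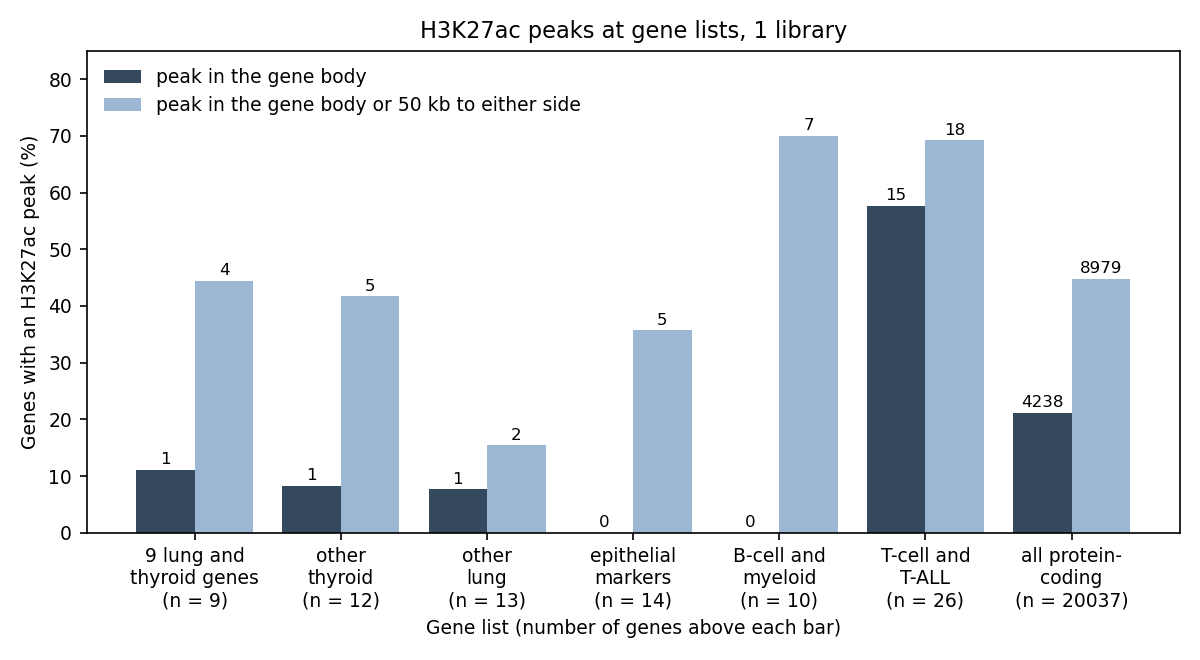
Share of genes (%) with an H3K27ac peak in the gene body (dark bars) and in the window of the gene body and 50 kb to either side (light bars), by gene list, with the number of genes above each bar. The 9 genes have 1 in the body and 4 in the window, and the T-cell and T-ALL markers 15 and 18 of 26.

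HHEX, a homeobox gene used in thyroid development and in blood progenitors, carried 1 broad H3K27ac peak of 17.7-fold over 3364 bp (chromosome 10, 92689686 to 92693049), which covered its RefSeq promoter. Only 0.538% of H3K27ac peaks had a fold as high or higher. The combined-list peak inside it (92690798 to 92691010) had 3.34-fold enrichment, and the 1 library with a call there was WT10 (5.67-fold). Of the 209 combined-list peaks, 85.2% had a fold and 82.8% a −log10 q as high or higher. Of the 1144 WT10 peaks, 54.9% had a fold and 68% a −log10 q as high or higher. Without WT10, neither HHEX nor TG had an NKX2-1 antibody call in any of the other 7 libraries.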

How the data were processed

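ChIP-seq peak lists of 9 RPMI-8402 libraries and 2 lists of the whole series were used. Per the submitters' processing notes, reads were handled with FastQC, Bowtie2, SAMtools, MACS2 and deepTools on build hg38. Tool versions, settings, peak-calling controls and the way both lists were made are not given in the sources used here. As deposited, the lists follow the MACS2 layout: column 7 is the authors' ratio (fold enrichment at the summit), and a further column the authors' −log10 of the q-value. Both were compared only among peaks of the same list. The WT-only list, as deposited, has positions in bp and no score.

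Positions were made 1-based and set against RefSeq genes of GRCh38.p14, the assembly hg38 names (Python 3.11.15, pandas 2.3.3, NumPy 2.4.6, SciPy 1.17.1). Without a genome sequence, letters under peaks were not read. The exact permutation test covered all 70 assignments of the 8 libraries and was tested on simulated data. Each clone gave 1 library, so a p measures the spread between clones, technical spread included. Alternatives were other windows, half-peak overlap, stricter −log10 q, each library left out, Fisher's exact test, windows called in at least 3 libraries, and the CAAG core.

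The members, gene lists and tests were chosen with earlier results of these data known. All 9 members were named, with neighbouring genes that held a peak and genes of the wider list with an NKX2-1 call or the most H3K27ac peaks in the body. No member had calls in 2 or more NKX2-1 libraries, so genes with a like pattern were not sought. Some neighbouring or listed genes are not reported here.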

Additional observations from a re-analysis of the deposited data

Results flagged for a closer look

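In the TG window the number of NKX2-1 antibody peaks was 1 in WT10 and 0 in the other 3 WT libraries, which sets WT10 apart within its group of 4. With values of 0 and 1 any single call is marked in this way, and chance marks about 1 in 20 groups even without such ties. WT10 was the only library with a call in the windows of 250 protein-coding genes (1.25%), and it held more peaks than any other NKX2-1 library; the part of its larger peak number in the TG call was not tested.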

How the results depend on the processing

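The number of H3K27ac peaks in the 9 windows was 13, and 9, 9 and 16 with the gene body alone, 10 kb or 100 kb to each side. It fell to 4 with a −log10 q of 5 or more and to 1 with 10 or more, fewer peaks being counted by construction. Combined-list peaks stayed at 0 and WT-only regions at 1 in each setting run. No gene window passed the adjusted threshold under any alternative. The KO minus WT difference in windows with a peak was -0.25, from -0.333 to 0 with 1 library left out; it was 0 without WT10 and at a −log10 q of 10 or more. The adjusted p of TG ranged from 0.806 to 1 by permutation or Fisher's exact test. With a single call in TG, this range says nothing on genotype. Counting the CAAG core gave 7 promoters with a match in place of 2. No paired analysis was possible because the clone names share no replicate number between genotypes. Unknown depth limits every statement on a window without a peak.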
